A study of Mus musculus with 13 samples.

Results

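The miR-99, miR-100 and miR-125 families are microRNAs (miRNAs, short RNAs that repress messenger RNAs) cut from 6 mouse hairpins: mmu-mir-99a, mmu-mir-99b, mmu-mir-100, mmu-mir-125a, mmu-mir-125b-1 and mmu-mir-125b-2. The members were chosen by hairpin name, with every arm of each hairpin and with a single entry for each mature miRNA. This gave 6 of 903 listed hairpins, 12 of 1514 listed pairs of hairpin and mature miRNA, and 11 of 1384 mature miRNAs. The count of miR-125b-5p, the product that both mir-125b hairpins encode, differed between these hairpins by at most 0.611% in any library, and the higher count was used.

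The data are 13 small RNA sequencing libraries of mouse brain, and the question behind the comparisons is how excess AChE-R relates to small RNAs in the brain. FVB/N mice, the parent strain, gave 3 libraries of hippocampus and 3 of prefrontal cortex (PFC). TgR mice, which carry human AChE-R (the readthrough variant of acetylcholinesterase) on the FVB/N background and overexpress it constitutively, gave 3 libraries of hippocampus and 4 of PFC. The transgene is driven by a minimal CMV promoter-enhancer, which is not limited to cholinergic cells. The labels state neither age nor sex, nor do they say if a mouse gave tissue from both regions. Each library was made from 300 ng of total RNA, and its depth, as the sum over all listed pairs, ran from 8769851 counts in TgR PFC replicate 2 to 18385985 counts in TgR hippocampus replicate 1. With a single entry per mature miRNA the totals were 5350259 to 11111883 counts.

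As background, a miRNA finds its targets mainly through its seed, the bases just behind the first base, so that miRNAs with the same seed can share targets. The miR-125 family descends from the same ancestral gene as lin-4 of the nematode, the first miRNA described, and is abundant in neurons. The miR-99 and miR-100 family is known for repressing the kinase mTOR, and in the genome its hairpins sit beside a let-7 hairpin and a miR-125 hairpin.

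The mature sequences are shown because the results below set members with the same seed, and members from the same hairpin, side by side. They were taken from the RefSeq miRNA table of build GRCm38.p6, which held all 11 members and 1165 of the 1384 listed mature miRNAs. Each is written 5′ to 3′, the capitals mark the seed (bases 2 to 8), and the lines are grouped by shared seed, first the 5p arms of the miR-99 and miR-100 family and of the miR-125 family, then the 3p arms.
miR-99a-5p: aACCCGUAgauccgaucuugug
miR-100-5p: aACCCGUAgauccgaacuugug
miR-99b-5p: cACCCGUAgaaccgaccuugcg
miR-125b-5p: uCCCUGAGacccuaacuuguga
miR-125a-5p: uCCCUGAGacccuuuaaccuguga
miR-99a-3p: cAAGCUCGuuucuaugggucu
miR-99b-3p: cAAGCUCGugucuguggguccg
miR-100-3p: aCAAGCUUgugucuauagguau
miR-125b-1-3p: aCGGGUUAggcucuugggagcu
miR-125b-2-3p: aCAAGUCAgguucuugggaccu
miR-125a-3p: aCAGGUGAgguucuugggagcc

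The 3 members of the miR-99 and miR-100 family shared a seed on the 5p arm, as did the 2 miR-125 5p arms. Counted from the 5′ end, miR-99a-5p differed from miR-100-5p by the single substitution U16A. Reads of these members could thus be confused, and how often was not tested. From miR-99a-5p to miR-99b-5p the substitutions were A1C, U11A, U16C and U21C. miR-125b-5p (22 bases) and miR-125a-5p (24 bases) shared their first 13 bases. Among the listed miRNAs with a sequence, the only other one with either 5p seed was miR-351-5p, which has the miR-125 seed and shares its first 8 bases with both miR-125 5p arms. The 3p arms were less alike: miR-99a-3p and miR-99b-3p had the same seed, and the other 4 each had a seed of their own.

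The 6 hairpins fall into 3 clusters, each with a miR-99 or miR-100 hairpin, a let-7 hairpin and a miR-125 hairpin in that order on the plus strand (GRCm38, GENCODE vM21). On chromosome 16, Mir99a (77598936 to 77599000), Mirlet7c-1 (77599657 to 77599750) and Mir125b-2 (77646273 to 77646343) span 47.4 kb and lie in introns of the noncoding gene Mir99ahg, and Mir125b-2 also overlaps an exon of C130023A14Rik. On chromosome 9, Mir100 (41531425 to 41531504), Mirlet7a-2 (41536716 to 41536811) and Mir125b-1 (41581926 to 41582002) span 50.6 kb and lie in introns of the noncoding genes 3110039I08Rik and Gm49317. Mir125b-1 also overlaps an exon of Gm28119, and Mir100 an exon of Gm48742 on the opposite strand. On chromosome 17, Mir99b (17830188 to 17830257), Mirlet7e (17830352 to 17830444) and Mir125a (17830812 to 17830879) span 692 bases. Mir99b and Mirlet7e lie in introns of Spaca6, and Mir125a overlaps an exon of that gene. Mirlet7e also overlaps an exon of Gm25927 on the opposite strand, and Mir99a and Mirlet7c-1 lie in introns of Gm11146 on the opposite strand.

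The families were among the most abundant miRNAs of these brain tissues, and their levels covered a wide range. Levels are given in CPM, counts brought to a common library total with the TMM factors of edgeR over the 13 libraries. miR-99a-5p was the highest member in every group, at 86581 ± 13678 CPM in FVB/N hippocampus, 53936 ± 8065 in TgR hippocampus, 45110 ± 2548 in FVB/N PFC (SD, n = 3 each) and 49746 ± 4969 in TgR PFC (SD, n = 4). It ranked 3 among all mature miRNAs in each FVB/N hippocampal library and 4 in each of the other 10 libraries. miR-125b-5p came next, with means of 27082, 28320, 23411 and 26076 CPM in the same order of groups and ranks of 5 to 8. The third member was miR-125a-5p, whose group means ran from 9653 to 11988 CPM.

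Each of these 3 levels was separate from the next in all 4 groups. miR-100-5p and miR-99b-5p followed at group means of 3159 to 4046 and 3460 to 3805 CPM, and their libraries overlapped in all 4 groups, with miR-100-5p the higher by mean in hippocampus and miR-99b-5p the higher in PFC. The 3p arms were the rarer arm of every hairpin. The highest 3p arm was miR-125b-2-3p, at group means of 243 to 362 CPM, separate from its neighbours in all 4 groups. miR-99b-3p (99.2 to 143 CPM) and miR-125b-1-3p (95.6 to 125 CPM) overlapped in FVB/N hippocampus and in both PFC groups and were separate in TgR hippocampus. At the low end stood miR-125a-3p (20.2 to 25.5 CPM), miR-99a-3p (3.84 to 7.72 CPM) and miR-100-3p (2.92 to 3.81 CPM), and the last 2 overlapped in FVB/N PFC alone. The last 2 rested on few reads, 23 to 92 counts per library for miR-99a-3p and 13 to 43 for miR-100-3p. All 11 members passed the filter on low counts in every comparison.

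**Figure D1:**
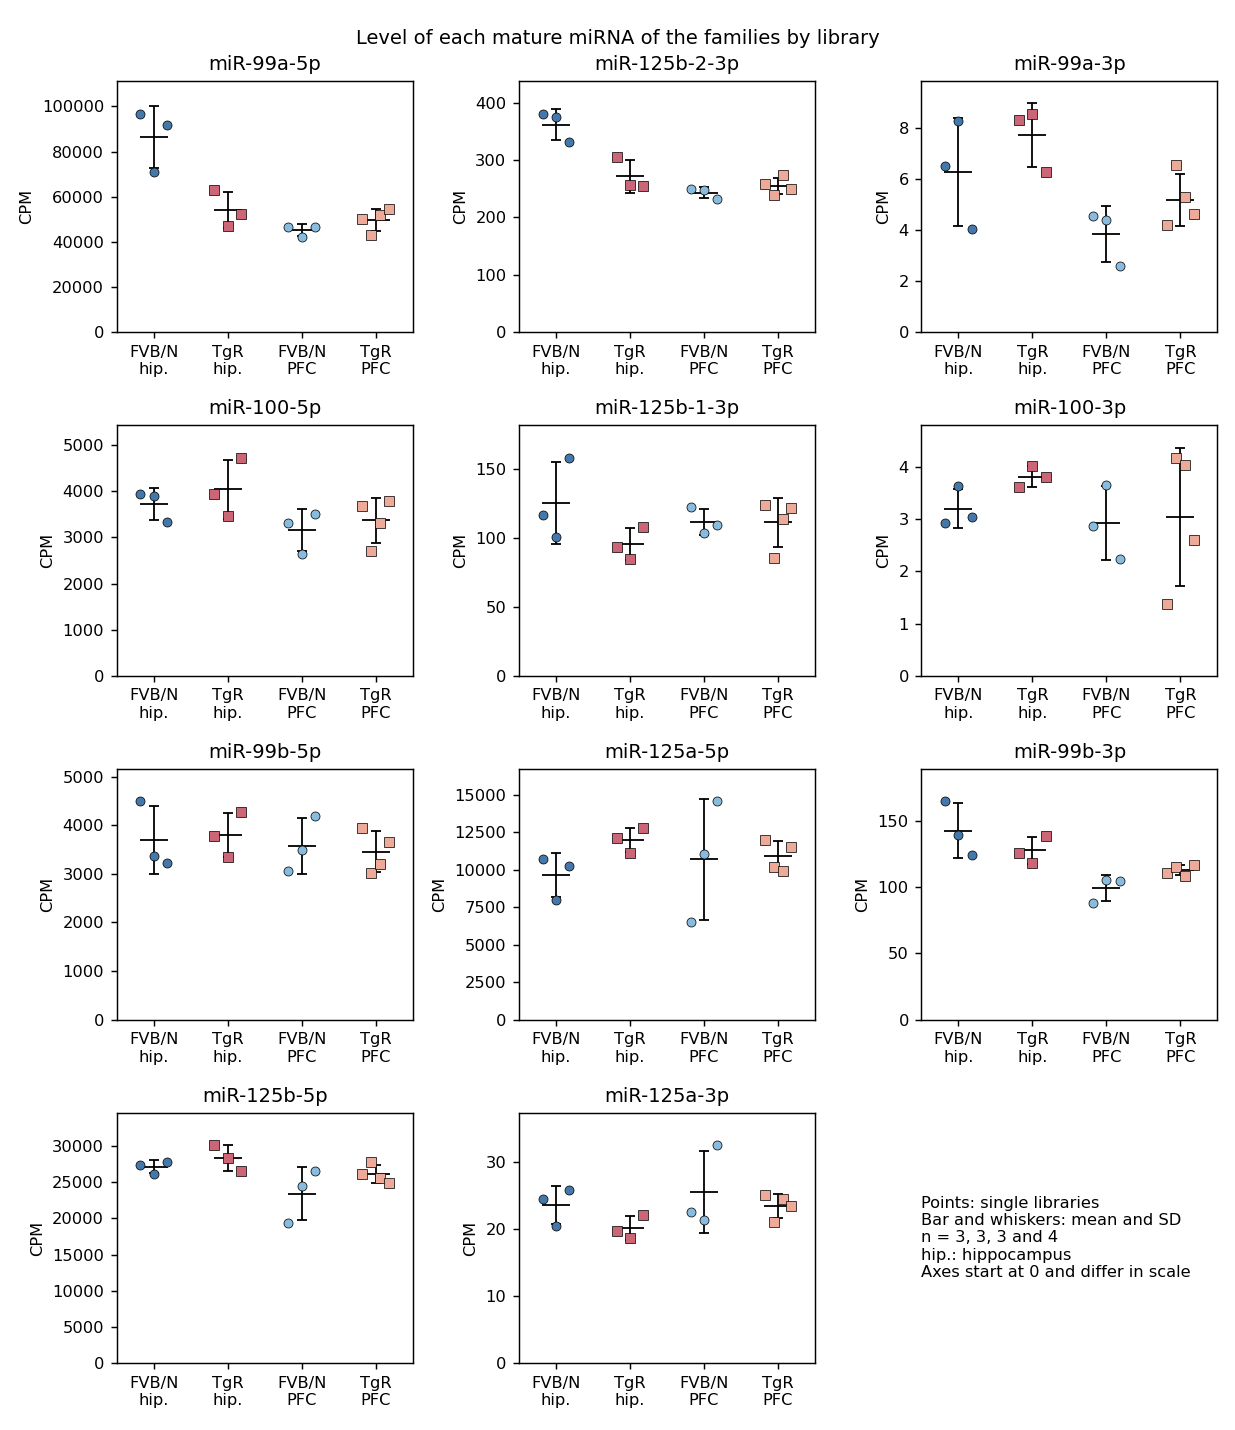
Level in CPM of each of the 11 mature members in the 13 libraries, with points for single libraries and bar and whiskers for mean and SD (n = 3, 3, 3 and 4). The 3 FVB/N hippocampal libraries lie above all other libraries for miR-99a-5p, at 71037 to 96774 CPM, and for miR-125b-2-3p, at 331 to 381 CPM.

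The families made up a large part of all counts. Their summed part was larger in FVB/N hippocampus than elsewhere, through miR-99a-5p and not through all members. The share of all members in the counts was 13.5%, 11.8% and 13.2% in FVB/N hippocampus replicates 1 to 3 and 11.3%, 9.93% and 10.8% in TgR hippocampus. It was 8.65%, 8.22% and 9.08% in FVB/N PFC and 9.31%, 8.95%, 9.28% and 9.42% in TgR PFC. All FVB/N hippocampal shares lay above all TgR hippocampal shares, and these above all PFC shares, with a share close to the top of its neighbour group in FVB/N hippocampus replicate 2. The 95% Wilson interval of FVB/N hippocampus replicate 1 was 13.475% to 13.521%; such intervals cover counting error only, as the reads carry no molecular identifiers, and they were narrow beside the spread between libraries. miR-99a-5p alone held 62.8% to 67.2% of the family counts in FVB/N hippocampus and 48.6% to 58.9% in the 10 other libraries. Of all counts it was 9.07%, 7.42% and 8.82% in FVB/N and 6.25%, 4.97% and 5.57% in TgR hippocampus. miR-125b-5p went the other way, at 2.56%, 2.73% and 2.67% in FVB/N and 2.99%, 3.00% and 2.83% in TgR hippocampus. Without miR-99a-5p, the members together held a smaller share in every FVB/N than in every TgR hippocampal library. The shares are given as values, without a test.

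The first comparison asked how the hippocampus of TgR mice differed from that of FVB/N mice. A single member passed the threshold: miR-99a-5p, which can target the mTOR pathway, was 1.63-fold lower in TgR mice. Its levels were 96774, 71037 and 91933 CPM in FVB/N hippocampus replicates 1 to 3 and 62734, 46893 and 52180 CPM in TgR hippocampus replicates 1 to 3. Every TgR library was below every FVB/N library, and the lowest FVB/N library, replicate 2, lay nearer to the highest TgR library, replicate 1, than to the other FVB/N libraries. The log2 fold change was -0.71 (standard error, SE, 0.15; edgeR adjusted p = 0.030). The test was the quasi-likelihood test of edgeR, Benjamini-Hochberg adjusted over 619 mature miRNAs.

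That is 1 of 11 members passing as lower in TgR mice, against 15 of 619 tested miRNAs (2.42%), and no member passed as higher. In all, 30 miRNAs passed an adjusted p of 0.05, 15 higher and 15 lower, and with scaling by library size alone the split was 14 higher and 7 lower. With 1 library left out, 2 to 18 passed, of which 0 to 8 were lower. The call of miR-99a-5p depended on single libraries: its adjusted p by edgeR was 0.0996 without FVB/N hippocampus replicate 1, 0.140 without FVB/N hippocampus replicate 3, 0.105 without TgR hippocampus replicate 2 and 0.104 without TgR hippocampus replicate 3. Its log2 fold change stayed between -0.91 and -0.59 over 15 alternatives, with adjusted p from 1.6e-05 to 0.14, and 10 of the 15 passed the threshold.

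Because miR-99a-5p and miR-100-5p differ at 1 base, their counts were also summed into a single entry, an alternative chosen after seeing the data. The sum had a log2 fold change of -0.66 (edgeR adjusted p = 0.034). miR-100-5p by itself was at 3953, 3909 and 3336 CPM in FVB/N and 3947, 3456 and 4733 CPM in TgR hippocampi. Its groups overlapped, and its log2 fold change of 0.10 (SE 0.14) did not pass (edgeR adjusted p = 0.74).

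The partner of miR-99a in its cluster, miR-125b-2-3p, was at 381, 375 and 331 CPM in FVB/N and 305, 256 and 255 CPM in TgR hippocampi. These groups did not overlap either, but the log2 fold change of -0.43 (SE 0.14) missed the threshold (edgeR adjusted p = 0.13). miR-125a-5p, from the mir-99b cluster, was at 10710, 8002 and 10248 CPM in FVB/N and 12080, 11131 and 12754 CPM in TgR hippocampi. Every TgR library was above every FVB/N library, with a log2 fold change of 0.29 (SE 0.14) that did not pass (edgeR adjusted p = 0.31) and fell to 0.17 without FVB/N hippocampus replicate 2. Groups without overlap were thus found for 3 of 11 members, beside 138 of 619 tested miRNAs (22.3%), a share close to that of the members.

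The other 8 members, miR-100-5p included, had log2 fold changes between -0.42 (miR-125b-1-3p) and 0.27 (miR-99a-3p), and none passed. With 1 library left out, miR-125b-1-3p ranged from -0.56 to -0.18 and miR-99a-3p from 0.061 to 0.53. miR-125b-5p, the second most abundant member, was at 27328, 26095 and 27823 CPM in FVB/N and 30064, 28335 and 26562 CPM in TgR hippocampi. Its groups overlapped, with a log2 fold change of 0.04 (SE 0.11, edgeR adjusted p = 0.86; 0.011 to 0.090 with 1 library left out). Over the 11 members the median log2 fold change was 0.02, with 5 below and 6 above 0, beside a median of -0.00 over the 619 tested miRNAs. Of the let-7 arms of the same clusters, 0 of 6 passed in edgeR, and none had an unadjusted p under 0.05. miR-351-5p, which has the miR-125 seed, had a log2 fold change of 0.09 (SE 0.21) and did not pass.

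**Figure D2:**
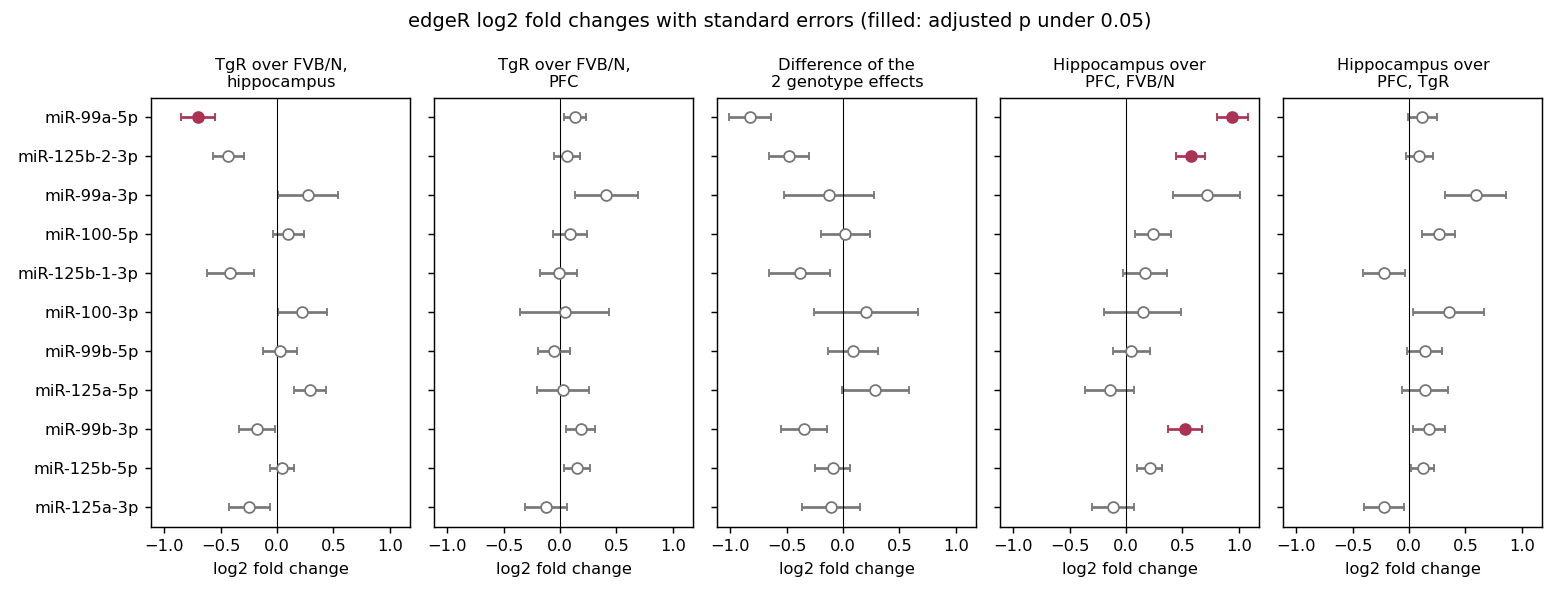
Log2 fold change (x axis) with its SE for each of the 11 members in the 5 comparisons, filled where the adjusted p is under 0.05. In hippocampus miR-99a-5p alone passed, at -0.71, and in FVB/N mice miR-99a-5p, miR-125b-2-3p and miR-99b-3p passed in the comparison of regions, at 0.94, 0.57 and 0.52.

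Markers of other cell types also differed between the hippocampal groups. Of 8 miRNAs listed as markers of choroid plexus and ependyma, 6 passed and all 6 were higher in TgR hippocampus. Their summed level was 2237, 1613 and 1606 CPM in FVB/N and 9918, 2635 and 8205 CPM in TgR hippocampus replicates 1 to 3, with miR-204-5p the most abundant. TgR hippocampus replicates 1 and 3 were far above all other libraries, and replicate 2 was a little above FVB/N hippocampus replicate 1. The call of miR-204-5p was narrow (edgeR adjusted p = 0.04986). Its groups overlapped, with 1608 CPM in TgR hippocampus replicate 2 and 1723 CPM in FVB/N hippocampus replicate 1. The list members that did not pass were miR-211-5p (0.54 on the log2 scale) and miR-449a-5p, which was lower in TgR hippocampus (-0.61). Of 2 oligodendrocyte markers, 1 passed, and both were higher in TgR hippocampus. Their sums were 616, 705 and 530 CPM in FVB/N and 856, 954 and 1067 CPM in TgR hippocampi, with miR-338-3p the most abundant. Of 6 blood cell markers, 2 passed, both lower in TgR hippocampus. The sums of this list were 2158, 2257 and 2260 CPM in FVB/N and 1302, 1592 and 1573 CPM in TgR hippocampi, with miR-451a the most abundant. For both lists the TgR and FVB/N sums did not overlap. The blood cell markers that passed were miR-451a (log2 fold change -0.86) and miR-486a-5p (-1.10), and miR-144-3p (-0.68) missed the threshold. The rest of that list did not share the fall, with miR-142a-3p at -0.02, miR-223-3p at 0.05 and miR-150-5p at 0.25. In edgeR, 0 of 3 vessel and 0 of 7 neuronal markers passed (at an unadjusted p under 0.05, 0 and 2), with miR-126a-3p and miR-128-3p the most abundant. No marker of any list was at 0 in any library.

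With TgR hippocampus replicate 2 as the only library of its group, an alternative chosen after seeing the data that assumes it to vary like the other groups, miR-99a-5p had a log2 fold change of -0.91 (SE 0.19, edgeR adjusted p = 0.085 on 11 libraries). This fit rests on 1 library for TgR hippocampus, and the part of the cell types of any of these marker lists in the result was not tested. In bulk tissue, fewer cells of a type and less RNA per cell cannot be told apart.

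**Figure D3:**
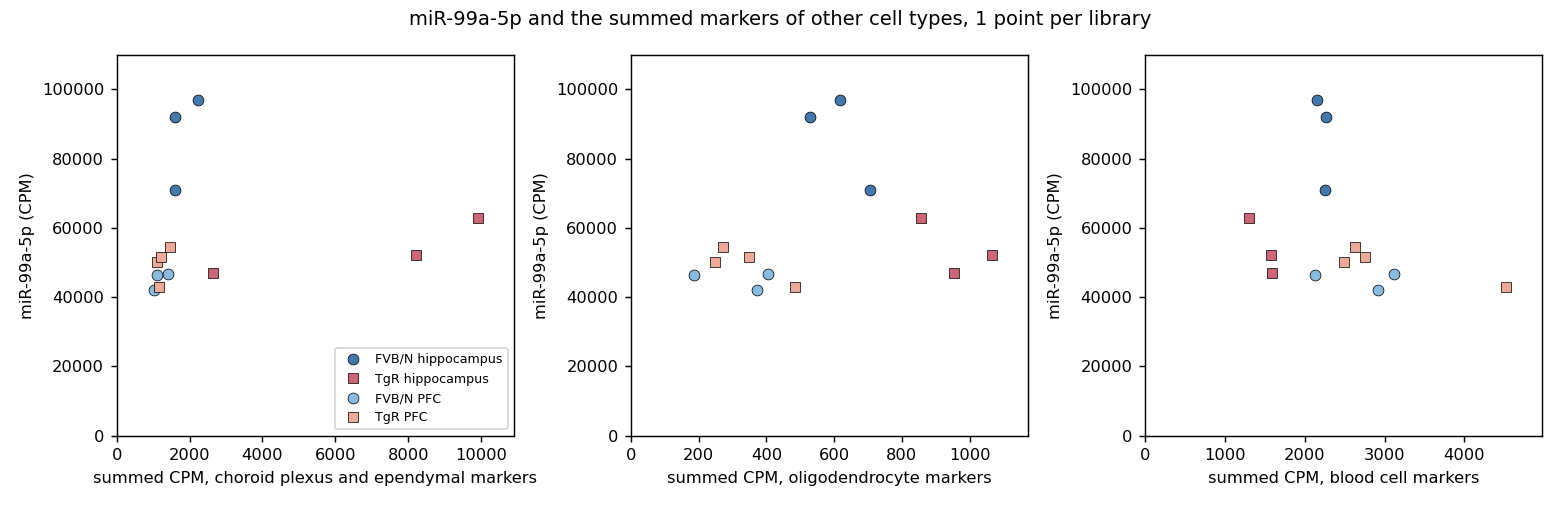
Level of miR-99a-5p in CPM (y axis) against the summed CPM of the markers of choroid plexus and ependyma, oligodendrocytes and blood cells (x axes), with 1 point per library. TgR hippocampus replicates 1 and 3 stand apart at 9918 and 8205 CPM of choroid plexus and ependymal markers, and replicate 2 is at 2635 CPM.

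In the PFC, no member passed in the comparison of the same genotypes, where few miRNAs of any kind did. miR-99a-5p was at 46705, 42171 and 46453 CPM in FVB/N PFC replicates 1 to 3 and at 50068, 42806, 51662 and 54449 CPM in TgR PFC replicates 1 to 4. The groups overlapped through TgR PFC replicate 2, the only TgR library below any FVB/N library. The log2 fold change was 0.13 (SE 0.10, edgeR adjusted p = 0.9994 over 628 mature miRNAs), and 0.084 to 0.19 with 1 library left out.

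None of the 11 members passed in edgeR (0 at an unadjusted p under 0.05, and 0 passed in DESeq2), beside 1 of 628 tested miRNAs (0.159%), miR-383-5p, which was chosen after its values were seen. With so few calls among all miRNAs, 0 of 11 says little about the families. Over all tested miRNAs, 20 had an unadjusted p under 0.05, and DESeq2 also called 1. The members' log2 fold changes lay between -0.12 (miR-125a-3p) and 0.41 (miR-99a-3p), with a median of 0.06 beside 0.00 over all tested miRNAs, and miR-99a-3p was at 0.19 to 0.58 with 1 library left out. A single member, miR-99b-3p, had groups without overlap, beside 30 of 628 tested miRNAs (4.78%). It was at 87.8, 105 and 104 CPM in FVB/N and 111, 116, 109 and 117 CPM in TgR PFC, a log2 fold change of 0.18 (SE 0.13; 0.11 to 0.23 with 1 library left out) that did not pass in edgeR. miR-125b-2-3p was at 250, 248 and 232 CPM in FVB/N and 258, 239, 273 and 251 CPM in TgR PFC, with overlap and a log2 fold change of 0.06 (SE 0.12; 0.034 to 0.091 with 1 library left out).

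The FVB/N PFC libraries differed among themselves for the miR-125 5p arms. miR-125a-5p was at 6484, 11018 and 14549 CPM in FVB/N PFC replicates 1 to 3 and at 11965, 10184, 9897 and 11489 CPM in TgR PFC replicates 1 to 4. Replicate 1 was the lowest and replicate 3 the highest of these 7 libraries, so the TgR group lay inside the FVB/N range. miR-125b-5p, at 19289, 24481 and 26464 CPM in FVB/N PFC, was likewise lowest in replicate 1, and all 4 TgR PFC libraries were between 24800 and 27778 CPM. Of the marker lists, 0 choroid plexus and ependymal (of 7 tested), blood cell (of 6), vessel (of 3), oligodendrocyte (of 2) and neuronal markers (of 7) passed in PFC by edgeR, and 2, 0, 0, 0 and 0 of them had an unadjusted p under 0.05.

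Whether the effect of genotype differed between the regions was tested directly, as the hippocampal minus the PFC log2 fold change. For miR-99a-5p the fit over all 13 libraries gave -0.68 in hippocampus and 0.14 in PFC, beside -0.71 and 0.13 in the separate fits per region. The difference was -0.82 in the fit over 13 libraries (SE 0.19, edgeR adjusted p = 0.070 over 647 mature miRNAs, unadjusted p = 0.00065), so it did not pass. The next member was miR-125b-2-3p, with a difference of -0.48 (SE 0.18, edgeR adjusted p = 0.38) that was -0.51 in DESeq2 (adjusted p = 0.068). None of 11 members passed in edgeR (2 at an unadjusted p under 0.05, and 1, miR-99a-5p, in DESeq2), beside 3 of 647 miRNAs (0.464%), miR-34b-3p, miR-34c-3p and miR-34c-5p, named after their values were seen.

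Over all tested miRNAs, 55 had an unadjusted p under 0.05 for the difference, and DESeq2 called 11. The members had a median of -0.11, with 7 below and 4 above 0, beside 0.03 over all tested miRNAs. With scaling by library size alone the median of all tested miRNAs moved to 0.15, and miR-99a-5p was at -0.70 on that scale (edgeR adjusted p = 0.081). The call of miR-99a-5p changed with single libraries: its adjusted p was 0.011 without FVB/N hippocampus replicate 2 and 0.031 without TgR PFC replicate 2 (edgeR). It passed in 5 of 21 alternatives. Over all 21 the adjusted p was 0.011 to 0.28 and the difference -1.04 to -0.70. The other 3 that passed were DESeq2 (adjusted p = 0.023), no filter (0.021) and the replicate block (0.038). Among the marker lists, 2 of 8 choroid plexus and ependymal markers passed in edgeR, miR-34b-3p and miR-34c-5p, both with a positive difference. At an unadjusted p under 0.05 were 7 of these 8, 2 of 6 blood cell and 2 of 7 neuronal markers. No blood cell, vessel, oligodendrocyte or neuronal marker passed in edgeR. The part of these cell types in the difference was not tested.

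The comparison of regions asked which members differ between hippocampus and PFC within a genotype, with all 13 libraries in a single fit. In FVB/N mice 3 members passed as higher in hippocampus, and none passed as lower. miR-99a-5p was 1.92-fold higher, with 71037 to 96774 CPM in hippocampus against 42171 to 46705 CPM in PFC. All 3 hippocampal libraries were above all 3 PFC libraries, by a log2 fold change of 0.94 (SE 0.14, edgeR adjusted p = 0.0025). miR-99a-5p passed in 14 of 14 alternatives, with log2 fold changes of 0.85 to 1.04 and adjusted p up to 0.020.

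miR-125b-2-3p, encoded in the same cluster, was 1.49-fold higher in FVB/N hippocampus, at 331 to 381 CPM against 232 to 250 CPM, without overlap (log2 fold change 0.57, SE 0.13, edgeR adjusted p = 0.017). It passed in 8 of 13 alternatives, with adjusted p from 0.00011 to 0.15 over all 13. It missed the threshold without FVB/N hippocampus replicate 1 (0.059), without FVB/N PFC replicate 2 (0.056), with the replicate block (0.052), without a filter (0.11) and with FVB/N libraries only (0.15). miR-99b-3p was 1.44-fold higher, at 165, 139 and 124 CPM in FVB/N hippocampus and 87.8, 105 and 104 CPM in FVB/N PFC, again without overlap. Its log2 fold change of 0.52 (SE 0.15) passed by little (edgeR adjusted p = 0.048). It passed in 2 of 13 alternatives, with adjusted p from 0.013 to 0.26 over all 13. Its adjusted p was 0.157 without FVB/N hippocampus replicate 1, 0.106 without FVB/N hippocampus replicate 2, and 0.157, 0.086 and 0.054 without FVB/N PFC replicates 1, 2 and 3 in turn. The 13 alternatives of miR-125b-2-3p and miR-99b-3p leave out the joined entry of miR-99a-5p and miR-100-5p. With that entry 3 of 10 members passed.

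In the planned fit 3 of 11 members passed as higher in hippocampus, beside 31 of 647 tested miRNAs (4.79%). In all, 49 passed, 31 of them higher. Without FVB/N hippocampus replicate 1 or 2 it was 27 each, 16 of them higher. Without FVB/N PFC replicate 1 it was 31, with 15 higher, and without FVB/N PFC replicate 2 it was 24, with 12 higher. Without a filter 24 were higher and 28 lower, and with FVB/N libraries only 13 and 9. The same 3 members were the ones without overlap, beside 136 of 647 tested miRNAs (21%). The members' median log2 fold change was 0.21, with 9 above and 2 below 0, beside 0.02 over all tested miRNAs. miR-99a-3p, the other arm of the mir-99a hairpin, had a log2 fold change of 0.72 (SE 0.30; 0.43 to 0.91 with 1 library left out) that did not pass (edgeR adjusted p = 0.18), at 4.04 to 8.28 CPM in hippocampus and 2.57 to 4.56 CPM in PFC with overlap.

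Among the let-7 arms, let-7c-5p differed between regions. It is listed at the hairpins let-7c-1, in the mir-99a cluster, and let-7c-2, outside it, so its reads cannot be assigned to the cluster. It was at 14980, 14710 and 13825 CPM in FVB/N hippocampus and 6949, 7584 and 12239 CPM in FVB/N PFC. The groups did not overlap, and the log2 fold change was 0.70 (SE 0.18, edgeR adjusted p = 0.034), the only one of 6 let-7 arms of the clusters to pass. The 3p arm of the cluster's own hairpin, let-7c-1-3p, was at a log2 fold change of 0.75 (SE 0.25) and missed the threshold (edgeR adjusted p = 0.078). Of the marker lists in FVB/N mice, 1 of 8 choroid plexus and ependymal markers and 1 of 2 oligodendrocyte markers passed and were higher in hippocampus. Of 7 neuronal markers, 1 passed as higher and 2 as lower, while 0 of 6 blood cell and 0 of 3 vessel markers passed in edgeR (2 and 0 at an unadjusted p under 0.05). The summed neuronal level was 359300, 307260 and 357260 CPM in FVB/N hippocampus and 351960, 445940 and 434230 CPM in FVB/N PFC. The PFC sums were 1408, 1023 and 1115 CPM for choroid plexus and ependyma and 405, 371 and 187 CPM for oligodendrocytes, below the hippocampal sums given above for the same strain. Their part in the result was not tested.

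In TgR mice no member passed between the regions. miR-99a-5p was at 46893 to 62734 CPM in TgR hippocampus and 42806 to 54449 CPM in TgR PFC, and the groups overlapped. Its log2 fold change was 0.12 (SE 0.13, edgeR adjusted p = 0.66), and that of miR-125b-2-3p was 0.09 (SE 0.12). With 1 library left out they ranged from 0.0010 to 0.17 and from 0.0067 to 0.11. let-7c-5p, which let-7c-2 encodes as well, was higher in TgR hippocampus too, at 15450, 12442 and 13576 CPM against 9809, 8358, 8499 and 10645 CPM in TgR PFC, without overlap. It had a log2 fold change of 0.57 (SE 0.17, edgeR adjusted p = 0.046), while let-7c-1-3p was at 0.11 (SE 0.23) with overlap and did not pass (edgeR adjusted p = 0.81).

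Of the 11 members 0 passed in edgeR (1, miR-99a-3p, at an unadjusted p under 0.05, and 0 in DESeq2), beside 66 of 647 tested miRNAs (10.2%), of which 35 were higher in hippocampus and 31 lower. With 1 library left out 29 to 60 passed, of which 19 to 30 were higher. With scaling by library size alone the split was 53 higher and 22 lower, and the median of all tested miRNAs was 0.13. Over all tested miRNAs 149 had an unadjusted p under 0.05, and DESeq2 called 85. The 1 member without overlap was miR-99b-3p, at 126, 118 and 139 CPM in TgR hippocampus and 109 to 117 CPM in TgR PFC, beside 177 of 647 tested miRNAs (27.4%). The members' median was 0.14, with 9 above and 2 below 0, beside 0.05 over all tested miRNAs.

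In the choroid plexus and ependymal list, 6 of 8 markers passed as higher in TgR hippocampus than in TgR PFC. All 8 had log2 fold changes above 0, and their sums in TgR PFC were 1098, 1160, 1217 and 1468 CPM. Both oligodendrocyte markers were higher, from 247, 483, 348 and 273 CPM in TgR PFC. Of the blood cell markers 2 of 6 passed as lower and all 6 were below 0, with sums of 2486, 4524, 2754 and 2630 CPM in TgR PFC. Of the neuronal markers 1 of 7 passed, as lower, with 4 below and 3 above 0. Of the vessel markers, 0 of 3 passed in edgeR (2 at an unadjusted p under 0.05), and their sums were 16793 to 30882 CPM over the 13 libraries. With TgR hippocampus replicate 2 alone in its group the log2 fold change of miR-99a-5p between the regions turned to -0.13 (edgeR on 11 libraries, adjusted p = 0.90). The comparisons of regions and of genotypes share libraries, so they are not independent, and their values stand side by side: for miR-99a-5p -0.71 and 0.13 for genotype in hippocampus and PFC (a fit per region), and 0.94 and 0.12 for region in FVB/N and TgR mice (the fit over 13 libraries).

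The ratio of members from the same cluster within each library does not depend on scaling between libraries. For each cluster the 5p arm of miR-99 or miR-100 was divided by the arm of miR-125 that no other cluster encodes, and the mean log2 ratios were compared by exact two-sided permutation tests, 12 in all. With 3 libraries against 3 such a test cannot give a p below 0.1, and with 4 against 3 not below 0.0571, so none could pass a threshold of 0.05. In the mir-99a cluster the ratio of miR-99a-5p to miR-125b-2-3p was 254, 190 and 278 in FVB/N hippocampus and 206, 183 and 205 in TgR hippocampus. It was 187, 170 and 200 in FVB/N PFC and 194, 179, 189 and 217 in TgR PFC. FVB/N hippocampus replicates 1 and 3 were above all other libraries, while replicate 2 lay among the rest, so that every pair of groups overlapped. The mean log2 ratio was 7.89 ± 0.29 in FVB/N and 7.63 ± 0.10 in TgR hippocampus, a difference of -0.26 (exact permutation p = 0.3, adjusted p = 0.686 over 12 comparisons). With the 3p arm of mir-99a over miR-125b-2-3p the difference turned to 0.76, and with 1 library left out it was -0.43 to -0.15.

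The mir-100 cluster had the reverse order in hippocampus. Its ratio of miR-100-5p to miR-125b-1-3p was 33.9, 38.6 and 21.02 in FVB/N and 42.1, 40.7 and 43.7 in TgR hippocampus. It was 27.1, 25.5 and 32.1 in FVB/N PFC and 29.7, 31.5, 29.1 and 31.0 in TgR PFC. The 3 TgR hippocampal libraries were above all 10 other libraries and close to each other. The mean log2 ratio was 5.40 ± 0.05 in TgR and 4.92 ± 0.46 in FVB/N hippocampus, a difference of 0.48 at the smallest p this design gives (exact permutation p = 0.1, adjusted p = 0.6 over 12 comparisons). It was 0.22 to 0.66 with 1 library left out, and 0.05 with miR-125b-5p as the denominator. Against TgR PFC, at 4.92 ± 0.05, the difference was also 0.48 (exact permutation p = 0.0571, adjusted p = 0.6).

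In the mir-99b cluster, miR-99b-5p was below miR-125a-5p in every library. The ratio was 0.419, 0.422 and 0.314 in FVB/N hippocampus and 0.313, 0.302 and 0.335 in TgR hippocampus. In PFC it was 0.471, 0.316 and 0.288 in FVB/N and 0.330, 0.297, 0.324 and 0.319 in TgR mice. FVB/N hippocampus replicates 1 and 2 and FVB/N PFC replicate 1 stood above all other libraries, and the groups overlapped in each of the 4 comparisons. The hippocampal difference between genotypes in the mean log2 ratio was -0.27 (exact permutation p = 0.2, adjusted p = 0.6 over 12 comparisons). With miR-125a-3p in place of miR-125a-5p it turned to 0.27, and with 1 library left out it was -0.41 to -0.20.

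**Figure D4:**
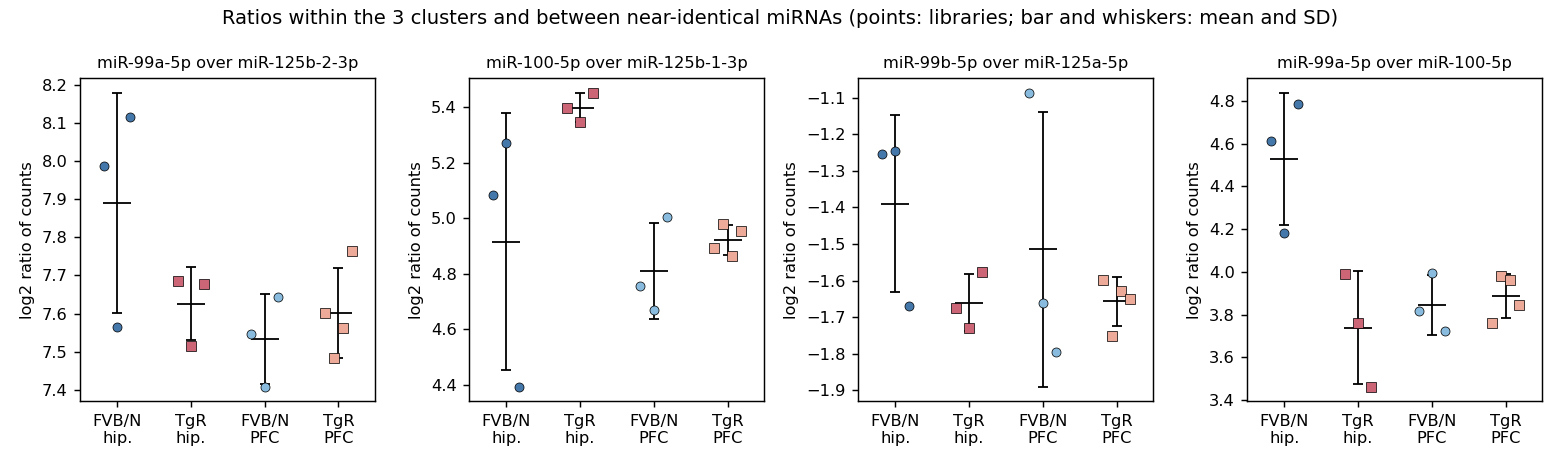
Log2 ratio, within each library, of the miR-99 or miR-100 5p arm to the miR-125 arm that its cluster alone encodes, for the 3 clusters and the 4 groups, with points for libraries and bar and whiskers for mean and SD. In the mir-100 cluster the TgR hippocampal libraries, at a mean of 5.40, lie above all others, and in the mir-99a cluster the groups overlap.

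Members with near-identical or matching arms from different clusters were compared in the same way, with ratios chosen after their values were seen. miR-99a-5p over miR-100-5p, which differ by U16A in the sequences above, was 24.5, 18.2 and 27.6 in FVB/N hippocampus and 15.9, 13.6 and 11.02 in TgR hippocampus. It was 14.1, 15.96 and 13.2 in FVB/N PFC and 13.6, 15.8, 15.6 and 14.4 in TgR PFC. Every FVB/N hippocampal library was above every other library. The difference in mean log2 ratio was -0.79 between TgR and FVB/N hippocampus and 0.68 between FVB/N hippocampus and FVB/N PFC (exact permutation p = 0.1 each, the smallest possible, adjusted p = 0.4 over 8 comparisons). In PFC the genotypes differed by 0.04, with overlap (exact permutation p = 0.629, adjusted p = 0.718). The 3p arms of the miR-125b hairpins gave a different picture, as miR-125b-2-3p was 2.09- to 3.70-fold miR-125b-1-3p in FVB/N hippocampus and 2.35- to 3.25-fold in TgR hippocampus. These groups overlapped, with a difference of -0.04 in mean log2 ratio (exact permutation p = 0.8, adjusted p = 0.8).

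The ratio of the 5p to the 3p arm compares products of the same hairpin. In hippocampus 4 of the 6 hairpins had TgR and FVB/N ratios without overlap, beside 53 of 254 hairpins with both arms tested (20.9%). Each of the 4 had an exact two-sided permutation p of 0.1, the smallest possible, with an adjusted p of 0.4 over 24 comparisons. For mir-99a the 5p arm was 14739, 8532 and 22384 times the 3p arm in FVB/N and 7506, 5438 and 8259 times in TgR hippocampus. All TgR ratios were lower, by 1.02 in mean log2 ratio (-1.02), on 3p counts of 32 to 92 in these libraries. For mir-125a the ratio was 436, 390 and 395 in FVB/N and 609, 595 and 574 in TgR hippocampus. Here all TgR ratios were higher, by 0.54 in mean log2 ratio, with SDs of 0.09 and 0.04.

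For mir-125b-2 the hippocampal ratio of miR-125b-5p to miR-125b-2-3p was 71.7, 69.6 and 84.0 in FVB/N and 98.6, 111 and 104 in TgR mice. For mir-99b it was 27.3, 24.3 and 26.0 in FVB/N and 30.0, 28.4 and 30.8 in TgR mice. Both were higher in all TgR libraries, by 0.48 and 0.20 in mean log2 ratio. The miR-125b-5p reads cannot be assigned to either hairpin, so the mir-125b ratios set a shared 5p arm against a 3p arm of a single hairpin. The mir-125b-1 and mir-100 ratios overlapped between genotypes, with differences of 0.44 (exact permutation p = 0.2; 0.27 to 0.57 with 1 library left out) and -0.14 (exact permutation p = 0.6).

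In PFC 0 of the 6 hairpins had genotypes without overlap in the arm ratio, beside 5 of 260 (1.92%). For regions it was 1 of 6 in FVB/N mice, beside 22 of 269 hairpins (8.18%), and 1 of 6 in TgR mice, beside 53 of 269 (19.7%). mir-99b had a lower ratio in FVB/N hippocampus than in FVB/N PFC, where it was 34.7, 33.0 and 40.2, a difference of -0.47 in mean log2 ratio (exact permutation p = 0.1, adjusted p = 0.4). mir-125a had a higher ratio in TgR hippocampus than in TgR PFC, where it was 476, 481, 401 and 489, a difference of 0.36 (exact permutation p = 0.0571, adjusted p = 0.4). All other arm ratios overlapped between the regions.

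**Figure D5:**
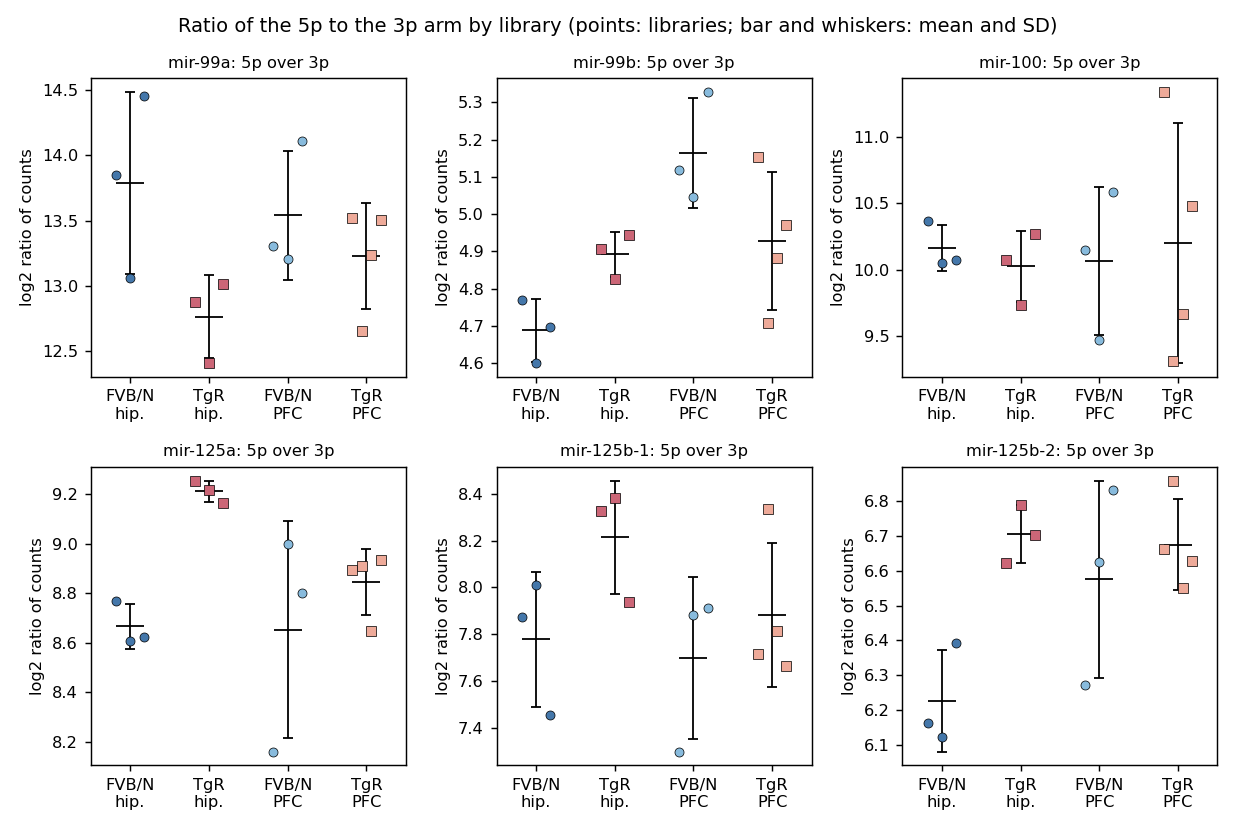
Log2 ratio of the 5p to the 3p arm of each of the 6 hairpins in the 13 libraries, with points for libraries and bar and whiskers for mean and SD. In hippocampus the TgR libraries are all lower for mir-99a (difference -1.02) and all higher for mir-125a (0.54), mir-125b-2 (0.48) and mir-99b (0.20); of all hairpins with both arms tested, 20.9% had genotypes without overlap there.

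Other miRNAs with a pattern like that of a 5p member over the 13 libraries were sought among 205 miRNAs with a mean of at least 100 CPM, by the root mean square difference of log2 levels after centring each on its own mean. For miR-99a-5p, whose own spread on this scale was 0.378, the most alike were miR-7b-5p at a difference of 0.168, miR-7a-5p at 0.175 and miR-181b-5p at 0.234. miR-7b-5p did not pass between FVB/N hippocampus and FVB/N PFC (log2 fold change 0.58, SE 0.18, edgeR adjusted p = 0.064) or between genotypes in hippocampus (-0.44, SE 0.16, edgeR adjusted p = 0.17), and its groups overlapped in both. miR-7a-5p was at 23856, 16565 and 18449 CPM in FVB/N hippocampus, 15441, 10998 and 13446 CPM in TgR hippocampus and 7198 to 11123 CPM in the 7 PFC libraries. It was 1.13 higher on the log2 scale in FVB/N hippocampus than in FVB/N PFC (edgeR adjusted p = 0.0028), and its hippocampal difference between genotypes of -0.58 did not pass (edgeR adjusted p = 0.073). miR-181b-5p was higher in hippocampus in FVB/N and in TgR mice (log2 fold changes 0.50 and 0.37, SE 0.11 and 0.10, edgeR adjusted p = 0.017 and 0.040). Its difference between genotypes in hippocampus, -0.15 (SE 0.12), did not pass (edgeR adjusted p = 0.54). All 3 were chosen for their likeness to miR-99a-5p over the same libraries, so these values are not independent of that choice. For miR-100-5p (own spread 0.217) they were miR-98-5p at 0.109, miR-344-3p at 0.112 and miR-872-5p at 0.122, and for miR-99b-5p (0.182) miR-30e-3p at 0.121, miR-344d-3p at 0.133 and miR-222-3p at 0.140. For miR-125a-5p (0.284) they were miR-323-3p at 0.160, let-7a-5p at 0.173 and miR-328-3p at 0.175. For miR-125b-5p (0.147), the steadiest of the 5p members, they were miR-191-5p at 0.132, miR-9-3p at 0.141 and let-7i-5p at 0.149, differences about as large as its own spread.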

How the data were processed

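The authors checked the reads with FastQC 0.11.8, aligned them to miRBase 21 with miRExpress 2.0 and deposited 1 count per pair of hairpin and mature miRNA in every library. Unlisted pairs were taken as 0. Each mature miRNA was entered with the highest count of its hairpins in that library; depth was 5350259 to 11111883 counts per library. Groups came from the sample titles. edgeR 4.0.16 in R 4.3.3 (TMM, filterByExpr with a minimum of 10 counts, quasi-likelihood test, Benjamini-Hochberg adjustment over all tested miRNAs, threshold 0.05) was fitted per region for genotype and over 13 libraries for regions and for the difference between regions. Ratios used a pseudocount of 0.5 counts and exact permutation tests (scipy 1.17.1, Python 3.11.15). The family share, planned with a test, is given as values. Named miRNAs were all arms of the member hairpins, let-7 arms of their clusters, miRNAs with a member's 5p seed, the 3 most alike miRNAs per 5p member, and cell type marker lists. Members and lists were chosen with earlier results of these data known. Alternatives were DESeq2 1.42.0, its size factors in edgeR, library size only, no filter, every pair as an entry, a replicate block, other fits over groups, other arms, a pseudocount of 5 and each library left out. Added after seeing the data were the sum of miR-99a-5p and miR-100-5p, TgR hippocampus as replicate 2 alone, and the ratios between clusters. The fits were tested on simulated data.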

Additional observations from a re-analysis of the deposited data

Results flagged for a closer look

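In TgR PFC, the only group looked at in this way, 1 library lay far from the other 3 in the log2 ratio of the 5p to the 3p arm of mir-125a. The ratio was 476, 481, 401 and 489 in replicates 1 to 4, with replicate 3 the lowest. Its gap to the nearest library was 0.865 of the whole range of the group on the log2 scale, above the 95% critical value of Dixon's test for 4 samples. In all 23 levels, ratios and shares of the families were looked at in this group, and chance gives such a gap in about 1 in 20 groups.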

How the results depend on the processing

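Most results kept their direction and, where a call was possible, their side of the threshold. Among values that answer a comparison, 461 recalculated ones did so, 42 turned direction, 29 lost their call or fell in count and 14 gained. Among single miRNAs the numbers were 764, 51, 21 and 5. The values that answer a comparison include ratio differences, whose exact tests could not pass the threshold at these group sizes. Such a difference could only keep or turn its direction, so its side of the threshold was fixed beforehand. miR-99a-5p was lower in TgR hippocampus in 15 of 15 alternatives and passed in 10, with miR-99a-5p and miR-100-5p joined in 1 entry as an alternative. It was higher in FVB/N hippocampus than in FVB/N PFC and passed in 14 of 14. The joined entry, the ratios between clusters and the fit with TgR hippocampus replicate 2 alone were chosen after seeing the data. The cause of the changes below was not tested.

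The number of miRNAs past the threshold in hippocampus was 51 with DESeq2, 64 without a filter and 17 with the replicate block. For the difference between regions it was 11, 16 and 10, and in each of these 3 settings 1 member passed, miR-99a-5p, against 0 in the planned fit. For regions in FVB/N mice it was 74 with DESeq2 and 22 when only FVB/N libraries were fitted. There 1 member, miR-99a-5p, passed without a filter, with the replicate block and with FVB/N libraries only, and miR-125b-2-3p and miR-99b-3p no longer did. The replicate block treats equal numbers in the titles as pairs. For FVB/N PFC the deposited files are numbered 1, 3 and 4 where the titles have 1, 2 and 3. The titles were used, so which PFC libraries belong to a block is uncertain. The deviations of equally numbered libraries from their group means, numbered by title, correlated at -0.16 to 0.39, and whether the numbers pair libraries was not tested.

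With TgR hippocampus replicate 2 alone in its group, assumed to vary like the other groups, 3 miRNAs and 0 members passed in hippocampus (62 miRNAs at an unadjusted p under 0.05), 0 for the difference between regions (40 at an unadjusted p under 0.05) and 5 for regions in TgR mice. This fit has fewer samples. The log2 fold change turned to -0.13 for miR-100-5p and -0.16 for miR-99b-5p in hippocampus. For the difference it turned to -0.22 for miR-100-5p, 0.016 for miR-99a-3p and -0.10 for miR-99b-5p. Between regions in TgR mice it turned to -0.0051 for miR-100-5p, -0.0074 for miR-125a-5p, -0.035 for miR-125b-2-3p, -0.13 for miR-99a-5p and -0.083 for miR-99b-5p.

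For the difference between regions, miR-100-5p turned to -0.00013 with DESeq2 and also with its size factors in edgeR, and to -0.032 with every listed pair as an entry. With library size only, miR-125a-3p turned to 0.0096 and miR-125b-5p to 0.013 while the median of all miRNAs moved to 0.15, and for regions in TgR mice that median moved to 0.13.

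Other arms turned some cluster ratios. With miR-125b-5p as denominator, the mir-99a cluster turned to -0.030 for genotype in PFC and -0.0067 for region in TgR mice, and the mir-100 cluster to -0.073 for genotype in PFC. With the 3p arm as numerator, the mir-99a cluster turned to 0.76 for genotype in hippocampus, the mir-100 cluster to -0.021 for genotype in PFC, and the mir-99b cluster to 0.093 for genotype in PFC and 0.033 for region in TgR mice. With miR-125a-3p as denominator, the mir-99b cluster turned to 0.27 and 0.051 for genotype in hippocampus and PFC, and to 0.36 for region in TgR mice.

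Leaving out 1 library at a time gave 2 to 18 miRNAs and 0 to 1 members past the threshold in hippocampus, 2 to 8 and 0 to 1 for the difference, 24 to 50 and 1 to 3 for regions in FVB/N mice, and 29 to 60 miRNAs for regions in TgR mice. The log2 fold change in hippocampus ranged from -0.028 to 0.19 for miR-100-5p and from -0.065 to 0.17 for miR-99b-5p. In PFC the ranges were -0.14 to 0.30 for miR-100-3p, -0.028 to 0.18 for miR-100-5p, -0.23 to 0.096 for miR-125a-3p, -0.23 to 0.31 for miR-125a-5p, -0.069 to 0.087 for miR-125b-1-3p and -0.15 to 0.082 for miR-99b-5p. For the difference they were -0.066 to 0.39 for miR-100-3p, -0.14 to 0.13 for miR-100-5p, -0.034 to 0.54 for miR-125a-5p, -0.21 to 0.018 for miR-125b-5p, -0.34 to 0.13 for miR-99a-3p and -0.064 to 0.22 for miR-99b-5p. For regions in FVB/N mice they were -0.014 to 0.30 for miR-100-3p, -0.25 to 0.098 for miR-125a-3p, -0.42 to 0.15 for miR-125a-5p, -0.081 to 0.28 for miR-125b-1-3p and -0.11 to 0.17 for miR-99b-5p, and in TgR mice -0.0081 to 0.19 for miR-99b-5p.

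Leaving out 1 library at a time also turned ratio differences that were near 0 or spread widely. For clusters the ranges were -0.016 to 0.079 for mir-99a and -0.045 to 0.031 for mir-99b by region in TgR mice, -0.072 to 0.37 for mir-100 and -0.015 to 0.34 for mir-99b by region in FVB/N mice, and -0.28 to 0.071 for mir-99b by genotype in PFC. For arms by genotype they were -0.26 to 0.0069 for mir-100 in hippocampus, and in PFC -0.25 to 0.43 for mir-100, -0.052 to 0.37 for mir-125a, -0.016 to 0.29 for mir-125b-1 and -0.053 to 0.23 for mir-125b-2. For arms by region in FVB/N mice they were -0.088 to 0.61 for mir-99a, -0.20 to 0.36 for mir-100, -0.23 to 0.19 for mir-125a and -0.12 to 0.24 for mir-125b-1. In TgR mice they were -0.11 to 0.039 for mir-99b, -0.47 to 0.21 for mir-100 and -0.012 to 0.092 for mir-125b-2. By genotype, miR-99a-5p over miR-100-5p ranged from -0.018 to 0.12 in PFC, and miR-125b-2-3p over miR-125b-1-3p from -0.29 to 0.12 in hippocampus and -0.0047 to 0.15 in PFC.

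With 3 or 4 libraries per group, the spread between libraries limits precision more than depth does for the 5p arms. For miR-99a-3p and miR-100-3p, at 13 to 92 counts per library, counting error adds to it. Exact tests at this size cannot pass 0.05. Reads of miR-99a-5p and miR-100-5p could be confused, and how often was not tested. miR-125b-5p cannot be assigned to a hairpin.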
